A study of Mus musculus with 22 samples.

Results

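The binding map of Lap2alpha was made in wildtype mouse dermal fibroblasts from chromatin sheared for 16 sonication cycles and again from chromatin sheared for 20. Both deposited region lists were compared, which held 67557 regions at 16 cycles and 91620 at 20 cycles, or 159177 of the 2189352 regions in the 18 lists of the series. A region was an interval of a list, and it counted as present at both lengths if it shared at least 1 bp with a region of the other list. By this rule 7936 regions of the 16-cycle list were present at both lengths, 59621 were present only at 16 cycles and 83675 only at 20 cycles.

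The study mapped Lap2alpha, lamin A/C, BRG1 and CHD4 by chromatin immunoprecipitation with sequencing (ChIP-seq), in wildtype cells and in cells lacking Lap2alpha (Lap2alpha KO). The cells are labelled as a dermal fibroblast cell line, that is, cells of the kind that lays down the skin's collagen. Both Lap2alpha libraries came from untreated wildtype cells fixed with the protein crosslinker DSG plus formaldehyde, sheared in a Bioruptor Pico bath sonicator and precipitated with antibody 1H11. There was 1 library per length, and the labels do not say whether they came from separate cultures, so every difference below has no replicate check and no test was made.

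The lists give a start and an end for each region and no height, score or read number, so sequencing depth is unknown and a longer list is not a larger amount of protein. Input DNA and Lap2alpha ChIP in the KO cells were not analysed here, so signal that does not depend on Lap2alpha cannot be told apart from signal that does. A ChIP region list does not measure expression, so the labelled cell type could not be checked by its markers. Sonication length cannot be told apart from any other difference between the 2 libraries. The 95% Wilson intervals below cover counting error only, and neighbouring regions are not independent.

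Lap2alpha is a splice form of the gene Tmpo. Unlike the LAP2 proteins that sit in the inner nuclear membrane, it has no membrane anchor, lies throughout the nuclear interior, binds the A-type lamins found there and interacts with the retinoblastoma protein. In ChIP, sonication breaks fixed chromatin into fragments before the antibody is added, and compact and open chromatin are known to break at different rates.

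The 300 bases around the gene start, from 250 before it to 50 after it, are shown first for 7 genes whose gene ends carried some of the widest regions of each class. They are from the RefSeq promoter table for GRCm38.p6, which had an entry for 17492 of the 21887 protein-coding genes. Sequences run 5′ to 3′ along the gene's strand, and capitals mark the bases that lay inside a region. For Ankrd1, a stress-induced muscle ankyrin repeat protein and YAP target, Dusp1, a phosphatase that switches off MAP kinases, and Jun, a subunit of the AP-1 transcription factor, the capitals are the bases inside regions of both lengths. The windows are chr19:36119795-36120094, chr17:26508423-26508722 and chr4:95052173-95052472, all on the minus strand.
Ankrd1: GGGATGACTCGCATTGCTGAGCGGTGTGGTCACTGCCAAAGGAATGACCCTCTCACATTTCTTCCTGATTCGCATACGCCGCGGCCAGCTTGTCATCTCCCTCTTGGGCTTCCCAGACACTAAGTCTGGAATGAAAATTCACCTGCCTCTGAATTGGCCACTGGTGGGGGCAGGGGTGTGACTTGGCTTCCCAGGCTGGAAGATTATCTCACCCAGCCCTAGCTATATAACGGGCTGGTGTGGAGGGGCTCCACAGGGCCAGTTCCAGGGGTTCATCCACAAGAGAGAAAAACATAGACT
Dusp1: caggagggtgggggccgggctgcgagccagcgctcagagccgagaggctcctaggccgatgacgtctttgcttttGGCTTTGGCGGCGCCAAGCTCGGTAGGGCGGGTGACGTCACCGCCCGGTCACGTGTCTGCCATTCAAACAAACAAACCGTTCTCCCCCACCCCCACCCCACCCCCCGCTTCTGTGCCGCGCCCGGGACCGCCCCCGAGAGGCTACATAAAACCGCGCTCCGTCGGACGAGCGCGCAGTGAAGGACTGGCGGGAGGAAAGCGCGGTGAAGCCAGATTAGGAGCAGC
Jun: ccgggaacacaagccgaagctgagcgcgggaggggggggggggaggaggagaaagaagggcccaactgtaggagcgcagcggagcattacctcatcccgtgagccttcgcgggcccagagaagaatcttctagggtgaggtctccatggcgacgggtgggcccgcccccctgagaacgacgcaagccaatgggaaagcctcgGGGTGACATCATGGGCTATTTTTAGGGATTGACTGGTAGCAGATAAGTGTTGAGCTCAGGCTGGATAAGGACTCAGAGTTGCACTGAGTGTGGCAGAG
All 300 bases of the Ankrd1 window lay inside regions of both lengths, against 225 of Dusp1 and 98 of Jun. In Dusp1 the capitals include the cyclic AMP response element letters TGACGTCA.

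Anln, which encodes the actin-binding protein anillin of the cleavage furrow, and Psmd14, which encodes a deubiquitinating subunit of the proteasome, had gene-end regions, defined below as within 1 kb of a gene's start or 3′ end, only at 16 cycles. Their windows are chr9:22389157-22389456 on the minus strand and chr2:61711444-61711743 on the plus strand, and the capitals are the bases inside 16-cycle regions, 198 for Anln and 40 for Psmd14.
Anln: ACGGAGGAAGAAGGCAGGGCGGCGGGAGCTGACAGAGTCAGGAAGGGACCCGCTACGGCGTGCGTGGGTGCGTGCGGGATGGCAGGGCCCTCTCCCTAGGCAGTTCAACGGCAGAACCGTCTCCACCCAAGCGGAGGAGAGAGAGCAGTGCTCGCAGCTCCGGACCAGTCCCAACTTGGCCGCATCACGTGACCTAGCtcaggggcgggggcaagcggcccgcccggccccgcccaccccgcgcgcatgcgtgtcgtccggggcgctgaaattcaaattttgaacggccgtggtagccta
Psmd14: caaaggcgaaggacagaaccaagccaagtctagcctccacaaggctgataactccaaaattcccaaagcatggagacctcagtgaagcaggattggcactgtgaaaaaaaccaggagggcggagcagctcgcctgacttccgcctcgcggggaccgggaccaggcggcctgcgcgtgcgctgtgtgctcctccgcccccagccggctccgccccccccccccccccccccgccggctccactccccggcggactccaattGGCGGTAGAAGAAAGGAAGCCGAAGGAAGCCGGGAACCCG
Junb, another AP-1 subunit, and Chchd1, a mitochondrial ribosome protein, had gene-end regions only at 20 cycles. Their windows are chr8:84978699-84978998 on the minus strand and chr14:20702777-20703076 on the plus strand, and the capitals are the bases inside 20-cycle regions, 264 for Junb and 300 for Chchd1. The widest Junb end region lay near the 3′ end, and the capitals mark a narrower one.
Junb: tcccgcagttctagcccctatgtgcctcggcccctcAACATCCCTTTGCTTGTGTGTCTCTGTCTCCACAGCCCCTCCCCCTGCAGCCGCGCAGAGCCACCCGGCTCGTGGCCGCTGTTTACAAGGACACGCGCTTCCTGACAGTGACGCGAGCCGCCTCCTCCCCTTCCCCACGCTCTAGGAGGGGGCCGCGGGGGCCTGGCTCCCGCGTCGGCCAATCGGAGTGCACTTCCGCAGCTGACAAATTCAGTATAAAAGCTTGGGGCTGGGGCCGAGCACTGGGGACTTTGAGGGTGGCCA
Chchd1: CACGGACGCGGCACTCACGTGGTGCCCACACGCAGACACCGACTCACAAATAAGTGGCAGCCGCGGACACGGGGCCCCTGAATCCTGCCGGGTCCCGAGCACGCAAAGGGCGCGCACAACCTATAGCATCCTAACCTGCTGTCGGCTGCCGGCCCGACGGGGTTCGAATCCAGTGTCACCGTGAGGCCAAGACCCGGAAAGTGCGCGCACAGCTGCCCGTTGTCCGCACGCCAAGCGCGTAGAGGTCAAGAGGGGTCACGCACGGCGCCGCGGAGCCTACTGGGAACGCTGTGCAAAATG

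Few regions were found at both lengths, and their shares were well above the share of the genome that the other list covered. Of the 67557 regions at 16 cycles, 11.7% overlapped a 20-cycle region (95% interval 11.5% to 11.99%). Of the 91620 regions at 20 cycles, 8.67% overlapped a 16-cycle region (8.49% to 8.86%). The lists covered little of the genome, 17.5 Mb or 0.643% of the chromosome spans at 16 cycles and 25.7 Mb or 0.944% at 20 cycles. The centres of 11.4% of the 16-cycle regions lay inside 20-cycle regions, 12.03 times the covered share, and the centres of 8.32% of the 20-cycle regions lay inside 16-cycle regions, 12.9 times the covered share.

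The other wildtype antibodies of the series shared more regions between the 2 lengths. The share of 16-cycle regions that overlapped a 20-cycle region was 81.2% for BRG1, 59.7% for CHD4, 51.7% for lamin A/C with antibody E1 and 48.7% with antibody 3A6. The share of 20-cycle regions overlapping a 16-cycle region was 28.5% for BRG1, 26.8% for CHD4, 22.8% for 3A6 and 15.6% for E1, against 8.67% for Lap2alpha. Those lists also covered more of the genome at 20 cycles, from 1.80% for E1 to 3.61% for BRG1.

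The regions of one length mostly lay kilobases away from those of the other. Regions only at 16 cycles were a median of 7.25 kb from the nearest 20-cycle region (quartiles 3.24 and 15.2 kb), and 5.00% of them were within 1 kb of one. Regions only at 20 cycles were a median of 15.4 kb from the nearest 16-cycle region (5.11 and 47.4 kb). Of these, 12.03% were more than 100 kb from any 16-cycle region, against 0.294% in the other direction.

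Regions only at 16 cycles were narrower than those only at 20, with medians of 234 bp and 268 bp. Regions present at both lengths had medians of 250 bp in the 16-cycle list and 296 bp in the 20-cycle list. Single widths recurred in both lists. Exactly 198 bp was the commonest width in each, with 25% of the 16-cycle regions and 8.97% of the 20-cycle regions. The next commonest at 20 cycles was exactly 438 bp, with 5953 regions or 6.497%, against 59 regions or 0.0873% at 16 cycles. How the authors' processing set these widths is not given in the sources used here.

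The wider a region, the more often it was found at both lengths. At 16 cycles the shared proportion was 10.1% among regions of up to 199 bp, 11.18% from 200 to 299 bp, 13.4% from 300 to 499 bp and 24.5% from 500 to 999 bp. It was 76.8% (64.2% to 85.9%) among regions of 1000 bp or more, where 43 of 56 were shared. At 20 cycles the proportions rose from 6.89% in the narrowest to 69.0% (50.8% to 82.7%) in the widest, where 20 of 29 were shared. A wider region has more bases in which an overlap can occur, and the part of this in the rise was not tested. The share of centres inside the other list also rose with width, from 9.89% to 69.6% at 16 cycles.

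The widest shared region at 16 cycles, 1957 bp, was at Ankrd1. Next were 1843 bp at Ccn2, a secreted matricellular growth factor modulator, 1771 bp over the histone genes H2ac8, H2bc8 and H2bc7, 1698 bp at Dusp1 and 1670 bp at Rhob, a small GTPase of actin dynamics. Regions of 1592 bp at Ccn1, a relative of Ccn2, 1586 bp at the transcription factor gene Klf6, 1545 bp at Vmp1, an autophagy gene, 1534 bp at S100a11, a calcium-binding protein gene, and 1486 bp at Mcl1, an anti-apoptotic BCL2 family gene, followed. At Dusp1 the overlapping 20-cycle region was 1421 bp wide and at Vmp1 1184 bp, while at Ccn2, Ccn1 and Rhob the 16-cycle region overlapped 2 or 3 separate regions of 438 to 668 bp at most.

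The X chromosome held far more of the 16-cycle list than of the 20-cycle list. It carried 14406 regions at 16 cycles, 21.3% of the list and 84.3 per Mb, and 9834 at 20 cycles, 10.7% of the list and 57.6 per Mb, on 6.28% of the chromosome spans. By number, all 19 autosomes had more regions at 20 cycles, from 1.05 times (chromosome 3) to 2.94 times (chromosome 7) as many as at 16. The 20-cycle list was also the longer one. By share of the list, chromosomes 3 (10.3% to 8.01%), 8 (10.9% to 9.09%), 14, 15 and 19 fell as X did. The other autosomes rose. The Y chromosome had 2 and 6 regions.

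Autosomes differed from each other by more at 16 cycles. Densities ran from 6.30 regions per Mb on chromosome 7 to 57.2 on chromosome 8 at 16 cycles, a 9.07-fold range, and from 18.5 on chromosome 7 to 70.0 on chromosome 19 at 20 cycles, a 3.78-fold range. The order of the 19 autosomes was nearly the same in both lists, with a Spearman rho of 0.96 over chromosomes, which share library and mappability. The rho with genes per Mb was 0.25 at 16 cycles and 0.34 at 20. Chromosomes X, 8, 3 and 19, picked after their values were seen, made up 19.2% of the spans and held 47.7% of the 16-cycle regions, 32.5% of the 20-cycle regions and 58.0% of the shared regions.

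**Figure D1:**
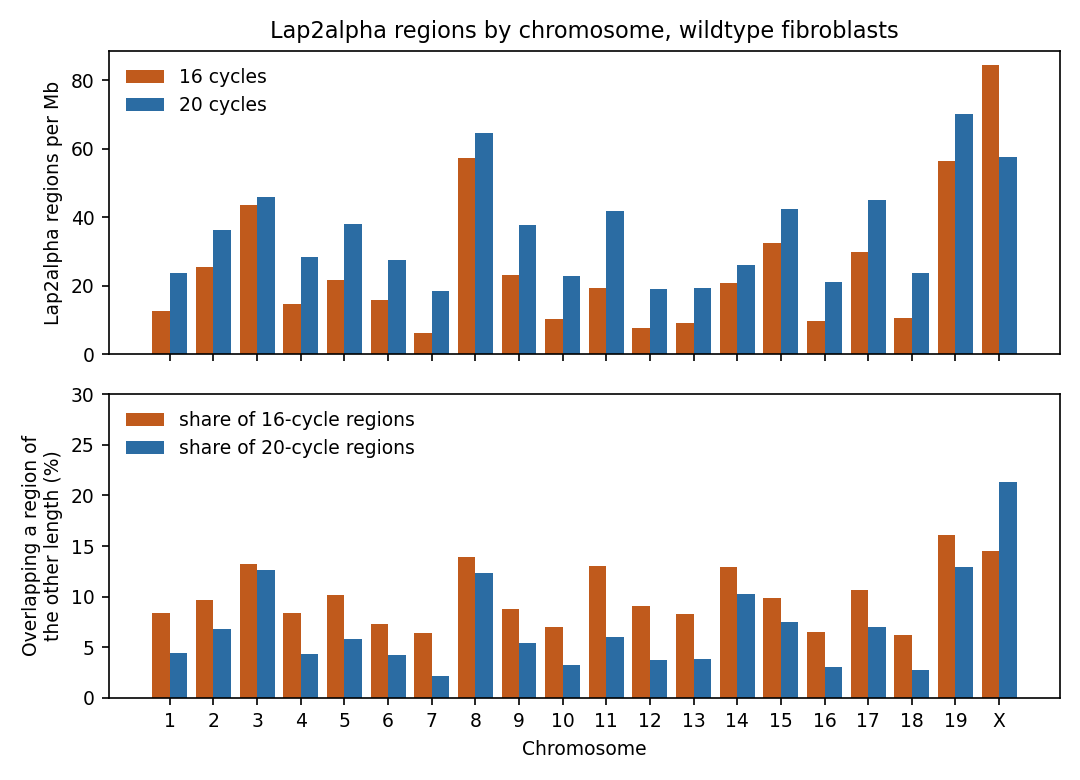
Lap2alpha regions per Mb of chromosome span (upper panel) and the percentage of each list's regions that overlap a region of the other length (lower panel), for 1 library at 16 cycles (orange) and 1 at 20 cycles (blue); chromosome Y, with 2 and 6 regions, is left out. Chromosome X stands at 84.3 and 57.6 regions per Mb and is the only one drawn with the higher bar at 16 cycles.

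Of the 16-cycle regions 14.5% were shared on X and 10.99% on the autosomes. Of the 20-cycle regions 21.3% were shared on X and 7.16% on the autosomes, where single chromosomes ran from 2.19% (chromosome 7) to 13.0% (chromosome 19). Measured against the length covered by the other list the order turned. The centres of 16-cycle regions lay inside 20-cycle regions 8.46 times as often as the covered share on X and 11.4 times on the autosomes.

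The fall of X between the lengths was also seen for other antibodies in wildtype cells. Its region density relative to the whole genome was 3.40 at 16 cycles and 1.71 at 20 cycles for Lap2alpha. The same values were 2.95 and 1.11 for lamin A/C with E1, 2.12 and 1.05 with 3A6, 1.42 and 0.520 for CHD4, and 0.651 and 0.458 for BRG1. In the KO cells E1 also had a lower value at 20 cycles, 1.161 and 0.977, while 3A6 (0.593 and 0.884), CHD4 (0.410 and 0.591) and BRG1 (0.393 and 0.425) had higher ones. The KO CHD4 list of 20 cycles was short, with 7283 regions against 88788 at 16 cycles. The labels do not say whether libraries of 1 sonication length were handled together, and the part of handling in these values was not tested.

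Regions found only at 20 cycles lay in more gene-dense parts of the genome than regions found only at 16. The genome was divided into 2732 bins of 1 Mb, and the 683 bins ranked highest by protein-coding genes, each with at least 11 and together 25% of the spans, were called gene-rich. These bins held 27.7% of the length of regions only at 20 cycles, 20.8% of regions at both lengths and 17.9% of regions only at 16 cycles. The bins ranked lowest, also 25% of the spans and with 2 genes at most, held 22.2%, 25.6% and 26.7%. Ties at 11 and at 2 genes were split by position, so that some bins with those numbers fell outside both classes. On the autosomes alone the gene-rich shares of length were 29.1%, 24.1% and 19.7%, beside 26.9% of the spans. By number of regions over all chromosomes the gene-rich shares were 27.7%, 18.1% and 17.8%. Counted that way, regions at both lengths lay close to those only at 16 cycles. Among regions of at least 300 bp the regions at both lengths had the highest gene-rich share of length, 31.3%, against 27.02% for those only at 20 cycles.

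The ratio of the lists changed step by step with gene number. In autosomal bins with no gene the 20-cycle list had 1.24 times as many regions as the 16-cycle list, and the ratio was 1.26 with 1 to 2 genes, 1.35 with 3 to 5, 1.58 with 6 to 10, 2.06 with 11 to 20 and 2.58 with 21 to 67. The density of regions only at 16 cycles was 19.2 per Mb in bins with no gene, 23.5 with 1 to 2 genes and 12.8 in bins with 21 or more. For regions only at 20 cycles these densities were 24.4, 30.4 and 35.8 per Mb. On X the ratio was 0.638 in bins with no gene and 1.06 in the 7 bins with 21 to 38 genes, so the step was also present there. Each step is a comparison of the same 2 libraries, and bins are not replicates.

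**Figure D2:**
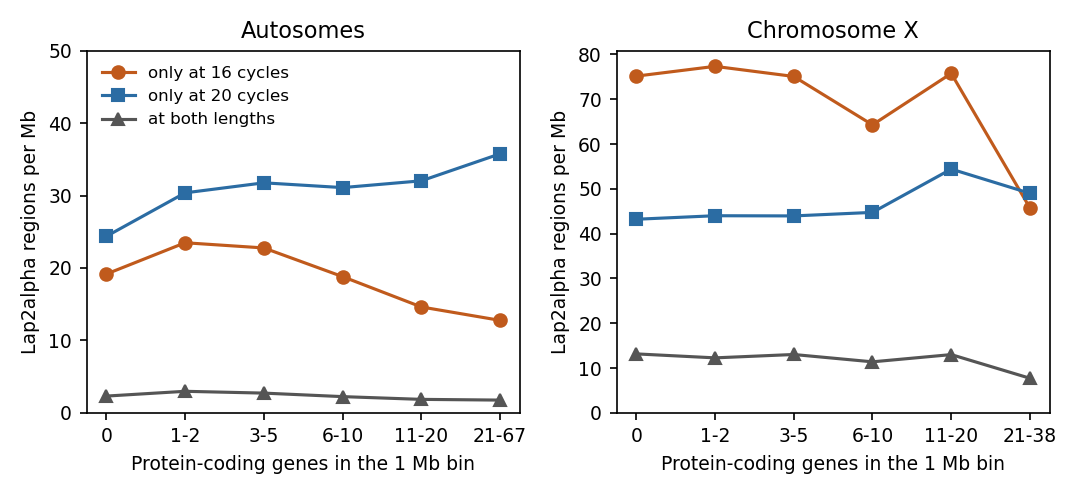
Lap2alpha regions per Mb against the number of protein-coding genes in 1 Mb bins, on autosomes (left) and chromosome X (right), for regions only at 16 cycles (orange), only at 20 cycles (blue) and at both lengths (grey, counted in the 16-cycle list); each point pools the bins of that gene number and the 2 vertical axes differ. On autosomes the regions only at 16 cycles go from 19.2 per Mb with no gene to 23.5 with 1 to 2 genes and 12.8 with 21 or more, and regions only at 20 cycles from 24.4 to 30.4 and 35.8.

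Such a shift was not particular to Lap2alpha. The 20-to-16 ratio in autosomal bins with 21 or more genes, divided by that in bins with 0 to 2 genes, was 2.06 for Lap2alpha and 2.91 for CHD4 in wildtype cells. It was 1.31 for BRG1, 1.13 for lamin A/C with E1 and 0.997 with 3A6. In the KO cells it lay between 0.567 and 1.08 for these 4 antibodies. The KO value for CHD4, 0.823, rests on the short 20-cycle list of 7283 regions.

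The largest local excesses at 20 cycles were mostly in gene-rich bins. The bin at 5 to 6 Mb of chromosome 19, with 51 genes, among them Fosl1, Cfl1 and Rela, went from 31 regions to 128. The bin at 84 to 85 Mb of chromosome 8, with 36 genes, among them Junb, Ier2 and Klf1, went from 1 region to 80. Of the 10 bins with the largest excess, 8 were on chromosome 11, including the bin at 120 to 121 Mb with Actg1, P4hb and Fasn, which went from 5 to 102.

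The distal end of chromosome 11, after its last bin with more regions at 16 cycles, was chosen once its values had been seen, so its excess at 20 cycles is a description only. From 112 Mb to the end, 9.98 Mb, it held 134 regions at 16 cycles and 862 at 20, or 13.4 and 86.4 per Mb. The rest of the chromosome held 19.8 and 37.8 per Mb. The same stretch went from 330 to 1920 regions in the BRG1 lists, from 185 to 1621 in the CHD4 lists, from 62 to 370 with lamin A/C antibody 3A6 and from 33 to 365 with E1.

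The largest local excesses at 16 cycles were in bins of chromosomes X, 8 and 3. The bin at 41 to 42 Mb of X, with the glutamate receptor gene Gria3 and Thoc2, held 125 regions at 16 cycles and 49 at 20. The bin at 81 to 82 Mb of chromosome 8, with the phosphatase gene Inpp4b, held 120 and 54, and the bin at 29 to 30 Mb of chromosome 3, with Egfem1, held 118 and 54. Among the autosomal bins 2047 of 2470 had more regions found only at 20 cycles and 323 more found only at 16, while on X 17 and 143 of 171 did.

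The 20-cycle list reached many more gene ends. A protein-coding gene counted as having a gene-end region when any region, whatever its width, came within 1 kb of its start or its 3′ end. At 16 cycles 1666 of 21887 genes (7.61%) had one, and at 20 cycles 4346 (19.9%). Both lengths gave a gene-end region for 612 genes (2.8%), only 16 cycles for 1054 (4.82%) and only 20 cycles for 3734 (17.1%). These shares are the background for every gene group below.

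A shared gene end was often a shared place. Of the 612 genes, 440 had regions of both lengths at the same end and 343 had regions of both lengths that overlapped. Of the genes with an end region at 1 length only, 331 of the 1054 at 16 cycles and 2567 of the 3734 at 20 cycles had no region of the other length within 10 kb of either end. The other genes had one nearby, outside the 1 kb window. Chromosome X held 14.4% of the genes with both, 12.7% of those with 16 only and 5.01% of those with 20 only, and 4.41% of all genes.

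Counts at gene starts differed more between the lists than counts at 3′ ends did, but starts and 3′ ends were not measured alike. The strand is known for the 17492 genes with a promoter entry. Any start among a gene's promoter entries counted, whereas the 3′ end was the end of the gene's RefSeq coordinates. A region lay within 1 kb of the start in 894 of them (5.11%) at 16 cycles and 2630 (15%) at 20, with 308 (1.76%) at both, 586 (3.35%) only at 16 and 2322 (13.3%) only at 20. Within 1 kb of the 3′ end the numbers were 756 (4.32%), 1484 (8.48%) and 179 (1.02%), with 577 (3.3%) only at 16 and 1305 (7.46%) only at 20. Windows around both gene ends make up 2.91% of the chromosome spans. They were touched, by at least 1 bp, by 4.30% of the regions at both lengths, 2.43% of those only at 16 cycles and 4.94% of those only at 20. A wider region touches a window more easily, so these shares and the share of the spans are unlike measures.

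Around the start, region centres lay on the transcribed side more than upstream. Among regions at both lengths 140 centres were in the first 1 kb of the gene and 56 in the 1 kb before it, among regions only at 16 cycles 382 and 258, and among regions only at 20 cycles 1335 and 972. Between 4000 and 5000 bp downstream and upstream of the start the counts were 53 and 37, 302 and 210, and 609 and 500. The lean to the gene side was therefore not confined to the start. The first 250 bp of genes held 0.668% of the regions at both lengths, 0.200% of those only at 16 cycles and 0.610% of those only at 20.

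**Figure D3:**
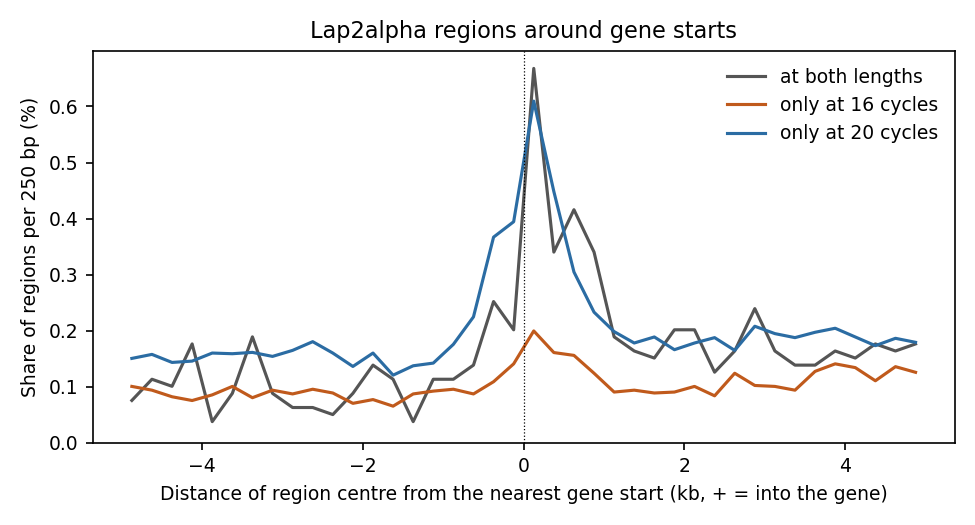
Share of Lap2alpha regions whose centre lies in each 250 bp step from the nearest annotated gene start, with positive distances inside the gene, for regions at both lengths (grey), only at 16 cycles (orange) and only at 20 cycles (blue). In the first step inside the gene the lines reach 0.668%, 0.200% and 0.610%.

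The promoter sequences of the classes differed in base composition. A promoter entry counted as both if its 300 bases touched regions of each length, which held for 85 entries of 79 genes. The median GC content was 54.0% for these, 51.3% for the 243 entries with 16 only and 60.0% for the 1062 entries with 20 only, beside 56.3% for all 21263 entries. At least 10 CpG dinucleotides were present in 68.2%, 47.7% and 76.9%, beside 56.8% of all. The AP-1 letters TGANTCA, searched on both strands, were in 7.06%, 9.88% and 6.31%, beside 6.99% of all, and the palindrome TGACGTCA was in 4.71%, 1.65% and 3.48%, beside 2.23% of all. The TGACGTCA counts were 4, 4 and 37 promoters. The TEAD letters ACATTCC were in 3.53%, 4.12% and 2.64%, beside 3.38% of all, and the SP1 letters GGGGCGGGG in 12.9%, 11.1% and 16.9%, beside 15.4% of all. None of these motifs contains another.

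Inside genes the lists also diverged. Of the 16853 gene bodies of at least 5 kb, 29% held regions of both lengths, 5.92% only of the 16-cycle list, 31.9% only of the 20-cycle list and 33.2% none. Gene bodies make up 37.9% of the spans. They held the centres of 39.0% of the regions at both lengths, 38.7% of those only at 16 cycles and 41.9% of those only at 20.

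Of the 8 genes with the widest end regions at both lengths, Ankrd1 had end regions of up to 1957 bp at 16 cycles and 1676 bp at 20, Dusp1 of 1698 and 1421 bp and Jun of 1484 and 1272 bp. Regions covered 41.2% and 39.6% of the Ankrd1 body, 65.4% and 66.9% of Dusp1 and 58.5% and 67.3% of Jun. The others were Vmp1 (1545 and 1184 bp), Plk2, a kinase gene induced by growth factors (1231 and 978 bp), Hspa5, the chaperone of the endoplasmic reticulum (910 and 1032 bp), Anxa1, an anti-inflammatory annexin (784 and 1440 bp) and the histone gene H2bc6 (802 and 780 bp). The H2bc6 regions lay beyond its body and were also those of the histone gene H1f4, which tied with it. They covered 73.4% and 72.0% of the H1f4 body. The widest Ankrd1 region lay at the 3′ end at 16 cycles and at the start at 20 cycles, and in Jun it was the reverse. The Hspa5 region of 910 bp lies at chr2:34775809-34776718 and the 1032 bp one at chr2:34775560-34776591, both over the 3′ end.

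The widest end regions found only at 16 cycles were narrower. Among genes with no 20-cycle region within 10 kb of either end they were at Srsf6, a splicing factor gene (724 bp), Psmd14 (594 bp), Rpl24, a ribosomal protein gene (590 bp), Pam, a peptide-amidating enzyme gene (512 bp), Hdhd2 (508 bp) and Anln (464 bp). Itfg1 and Phkb, a phosphorylase kinase subunit gene, lie head to head with overlapping starts and shared their widest end region, of 450 bp. Another 16-cycle region, chr8:85840974-85841321, also lay within 1 kb of both starts. Anln still had 3 regions of each length inside its body, covering 1.74% at 16 cycles and 1.51% at 20.

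The widest end regions found only at 20 cycles, with no 16-cycle region within 10 kb, began with Actb, the cytoplasmic actin gene, at 1078 bp and Junb at 814 bp. Dtl, a replication licensing regulator, and Ints7, an Integrator subunit gene, lie head to head and shared 1 region of 806 bp. Chchd1 (800 bp), the endocytic recycling gene Ehd1 (775 bp), the unconventional myosin gene Myo10 (770 bp) and the sialyltransferase gene St6galnac2 (764 bp) followed. The Actb region, chr5:142905968-142907045, covered 22.2% of the gene body, where the 16-cycle list had none.

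Ranked by coverage of the body at both lengths, the leading genes of at least 5 kb were Ankrd1, Thbs1, Klf6, Ddx5, Myc, Rpl3, Eif4a2 and S100a11. Thbs1, the secreted matrix glycoprotein thrombospondin 1, was covered to 54.3% at 16 cycles and 37.8% at 20, Klf6 to 50.2% and 33.1%. The RNA helicase gene Ddx5 was covered to 29.6% and 34.2%, and the growth regulator Myc to 23.2% and 31.3%. Over all protein-coding genes the mean coverage was 0.671% at 16 cycles and 1.24% at 20.

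Some genes were covered far more at 1 length. Higher at 20 cycles were the transcriptional corepressor gene Irf2bp2 (0% at 16 cycles and 27.6% at 20), Tmsb4x, an actin-sequestering peptide gene (0% and 22.0%), Zfp36l1, which destabilises mRNAs (2.17% and 23.3%) and Zyx, a focal adhesion gene (0% and 18.2%). Nat9, Hnrnpdl and Rps24 were also among the 8 largest. Higher at 16 cycles were Hmox1, the stress-induced haem oxygenase gene (39.9% and 11.4%), Rabggtb, a prenyltransferase subunit gene (35.4% and 9.12%), Plk2 (40.6% and 15.5%), Rps15a (31.9% and 7.61%), Srsf6 (21.4% and 0%), Ptgs2, the inducible prostaglandin synthase gene (40.9% and 20.2%) and Taf1d, of the RNA polymerase I machinery (24.8% and 5.85%).

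The genes of the 2 chains of type I collagen, the main fibre-forming collagen of skin, lay in opposite lists. Col1a1 on chromosome 11 was covered to 2.60% at 16 cycles and 18.9% at 20, with 1 and 6 regions in its body. Col1a2 on chromosome 6 was covered to 20.0% at 16 cycles and 2.75% at 20, with 14 and 3 regions.

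Immediate early genes, which are transcribed within minutes of a growth signal, had end regions in most cases at both lengths. Of 25, 15 had an end region at 16 cycles and 20 at 20 cycles, that is 60.0% and 80.0% beside 7.61% and 19.9% of all genes, and 14 had both. The AP-1 gene Fos had end regions of up to 992 bp at 16 cycles and 438 bp at 20, with 54.3% and 12.9% of its body covered. Ier3 had 340 and 650 bp, with 17.7% and 60.1% covered, and the mRNA-decay factor gene Zfp36 had 264 and 640 bp, with 10.8% and 38.7%. Jund had 690 and 388 bp and Myc had 274 and 1174 bp.

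Egr3 was the only immediate early gene with an end region at 16 cycles alone, of 416 bp. The 6 with one at 20 cycles alone were Junb, Ier2, Fosl1, Fosl2, Fosb and Btg2. Junb and Ier2 lie in the bin of chromosome 8 that went from 1 region to 80, and Fosl1 in the bin of chromosome 19 that went from 31 to 128. The Ier2 region was 740 bp wide and covered 47.1% of the body. Fosb and Btg2 did have 16-cycle regions in their bodies, which covered 17.4% and 20.6%. BRG1 regions lay at the ends of 22 of the 25 genes at 16 cycles and of all 25 at 20 cycles, beside 36.2% and 63.1% of all genes. Lamin A/C regions lay at 0 or 1 of 25 in each of the 4 wildtype lamin lists, beside 2.08% to 8.96% of all genes.

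Histone genes that are transcribed in S phase went the other way from the background. Of 62 replication-dependent histone genes, 55 (88.7%) had an end region at 16 cycles and 44 (71.0%) at 20, with 42 at both, 13 only at 16 and 2 only at 20. These genes have a median length of 0.491 kb and lie close together, so the windows overlap, and the counts rest on 51 distinct regions at 16 cycles and 41 at 20. On chromosome 13 the numbers were 45 and 35 of 52 genes and on chromosome 3 10 and 9 of 10. The widest regions were 1771 bp at 16 cycles, at H2ac8, H2bc8 and H2bc7, and 1750 bp at 20 cycles, at H2ac21, H2ac20 and H2bc21. The genes are near-identical copies, and how reads with several matches were placed is not given in the sources used here.

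Housekeeping, ribosomal protein and chaperone genes had more end regions at 20 cycles, as did all genes (7.61% at 16 cycles and 19.9% at 20). Of 25 housekeeping genes 5 had one at 16 cycles and 16 at 20, with 4 at both, among them the elongation factor gene Eef1a1 (508 and 782 bp). Gapdh, of glycolysis, had 628 bp and the elongation factor gene Eef2 438 bp, both at 20 cycles only. Of 84 ribosomal protein genes 22 (26.2%) had an end region at 16 cycles and 47 (56.0%) at 20, with 14 at both, 8 only at 16 and 33 only at 20. Rpl4 had 488 and 600 bp, Rps20 540 bp only at 16, and Rpl10 648 bp only at 20. Of 16 heat shock and chaperone genes 3 and 8 had one. Ribosomal protein genes have many processed copies elsewhere in the genome, so their counts are uncertain in the same way as for histones.

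Contractile genes and YAP targets, which respond to cell tension, had end regions at 6 of 25 genes at 16 cycles and 14 of 25 at 20, with 5 at both. Ccn2 had end regions of up to 1843 bp at 16 cycles and 662 bp at 20, with 78.8% and 61.0% of its body covered, and Ccn1 had 1592 and 689 bp, with 83.6% and 58.0%. Vcl, the focal adhesion gene for vinculin, had an end region of 1292 bp at 16 cycles alone, but regions of both lengths in its body, 15 and 12. Tpm1, a tropomyosin gene, had one of 702 bp at 20 cycles alone, with 5 and 6 regions in its body.

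Fibroblast and matrix genes had as many end regions at 16 cycles as at 20. Of 44, 13 (29.5%) had an end region at each length, 7 at both, 6 only at 16 and 6 only at 20. Fn1, which encodes fibronectin, had 752 and 438 bp, and Vim, of the fibroblast intermediate filament, 720 and 438 bp. Only at 16 cycles were Col1a2 (622 bp), Col3a1 (430 bp), Dcn (414 bp), Col5a2 (210 bp), Mmp3 (198 bp) and Cdh11 (198 bp). At 20 cycles alone were Bgn (438 bp), Col1a1 (368 bp), Pdgfra (268 bp), Pdgfrb (202 bp), Col6a3 (198 bp) and Timp3 (8 bp). The equal numbers thus count a region of 8 bp.

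**Figure D4:**
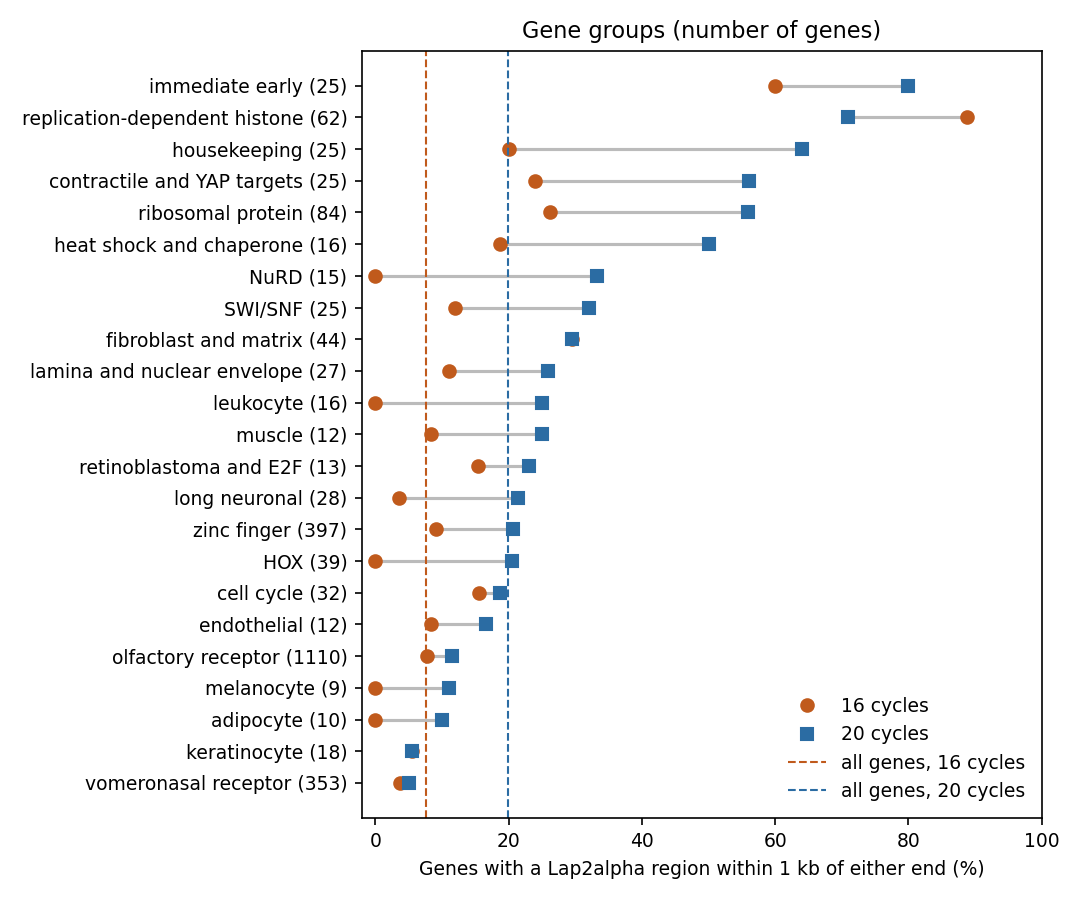
Percentage of the genes of each group, with the number of genes in brackets, that had a Lap2alpha region within 1 kb of either end at 16 cycles (orange circles) and 20 cycles (blue squares); dashed lines mark 7.61% and 19.9% of all protein-coding genes. Replication-dependent histone genes are the group with the higher value at 16 cycles, 88.7% against 71.0%, and the 2 symbols coincide for fibroblast and matrix genes at 29.5%.

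Genes of nuclear structure and chromatin proteins included those of the proteins under study. Tmpo, the gene of Lap2alpha itself, had an end region only at 20 cycles, of 438 bp, with 1.86% of its body covered. The body of Lmna, for lamin A/C, was covered to 3.17% at 20 cycles and had none at 16, Smarca4, for BRG1, to 0.511% at 16 cycles and 0.352% at 20, and Chd4 had none at either. End regions were found for 3 and 7 of 27 genes of the lamina and nuclear envelope (11.1% and 25.9%), 2 and 3 of 13 retinoblastoma and E2F genes (15.4% and 23.1%) and 5 and 6 of 32 cell cycle genes (15.6% and 18.8%), beside 7.61% and 19.9% of all genes. For chromatin remodellers they were found at 3 and 8 of 25 SWI/SNF genes, that is 12% and 32%, and at 0 and 5 of 15 NuRD genes, that is 0% and 33.3%. The 20-cycle end region of the NuRD gene Rbbp4 was only 30 bp wide.

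Developmental and tissue-restricted genes had counts near or below the background at 16 cycles, and at most a little above it at 20. HOX genes had 0 of 39 at 16 cycles and 8 at 20, zinc finger genes 36 and 82 of 397, olfactory receptor genes 86 and 128 of 1110 and vomeronasal receptor genes 13 and 18 of 353. Of 28 long neuronal genes 1 and 6 had an end region, although 27 had regions of both lengths in their bodies. Markers of other cells a skin culture could hold gave 1 and 1 of 18 for keratinocytes, 1 and 2 of 12 for endothelium, 0 and 4 of 16 for leukocytes, 0 and 1 of 9 for melanocytes, 1 and 3 of 12 for muscle and 0 and 1 of 10 for adipocytes. Some of the 20-cycle counts rest on very narrow regions, such as 16 bp at Myod1 and 56 bp at Acta1 among the muscle genes and 72 bp at Hoxb2.

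Regions at both lengths overlapped other wildtype lists most often. Any BRG1, CHD4 or lamin A/C list of wildtype cells overlapped 66.1% (65.0% to 67.1%) of the Lap2alpha regions at both lengths, 51.4% (51.0% to 51.8%) of those only at 16 cycles and 47.6% (47.3% to 47.97%) of those only at 20. Lamin A/C lists overlapped 39.2%, 29.8% and 24.4%, and BRG1 or CHD4 lists 34.1%, 26.1% and 26.1%. Overlap with both kinds was seen in 7.31%, 4.53% and 2.90%.

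Over all chromosomes, for CHD4 and BRG1 in wildtype cells, the Lap2alpha regions of 1 length overlapped the list of that same length more often than the Lap2alpha regions of the other length did. CHD4 regions of 16 cycles overlapped 11.02% of the Lap2alpha regions only at 16 and 5.58% of those only at 20, and CHD4 regions of 20 cycles 10.5% and 12.8%. For BRG1 these were 12.1% and 8.39% with the 16-cycle list and 18.9% and 20.5% with the 20-cycle list. On the autosomes alone the order with the BRG1 list of 20 cycles was not kept, with 21.64% and 21.54%. With the lamin A/C lists the regions only at 16 cycles had the higher share at either length. For antibody 3A6 the shares were 15.1% and 9.21% with the 16-cycle list and 19.9% and 18.7% with the 20-cycle list, and for E1 3.75% and 1.85%, then 6.96% and 6.31%. Against the KO lists the shares were 12.03% and 12.13% with BRG1 at 16 cycles and 14.3% and 14.3% with 3A6 at 16 cycles. On the autosomes alone these were 14.0% and 12.8% with BRG1 and 15.4% and 14.8% with 3A6. With E1 the regions only at 16 cycles had the higher share, 4.81% and 3.56% with the 16-cycle list and 9.35% and 8.45% with the 20-cycle list. With CHD4 at 20 cycles, a list of only 7283 regions, the shares were 0.488% and 0.621%.

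**Figure D5:**
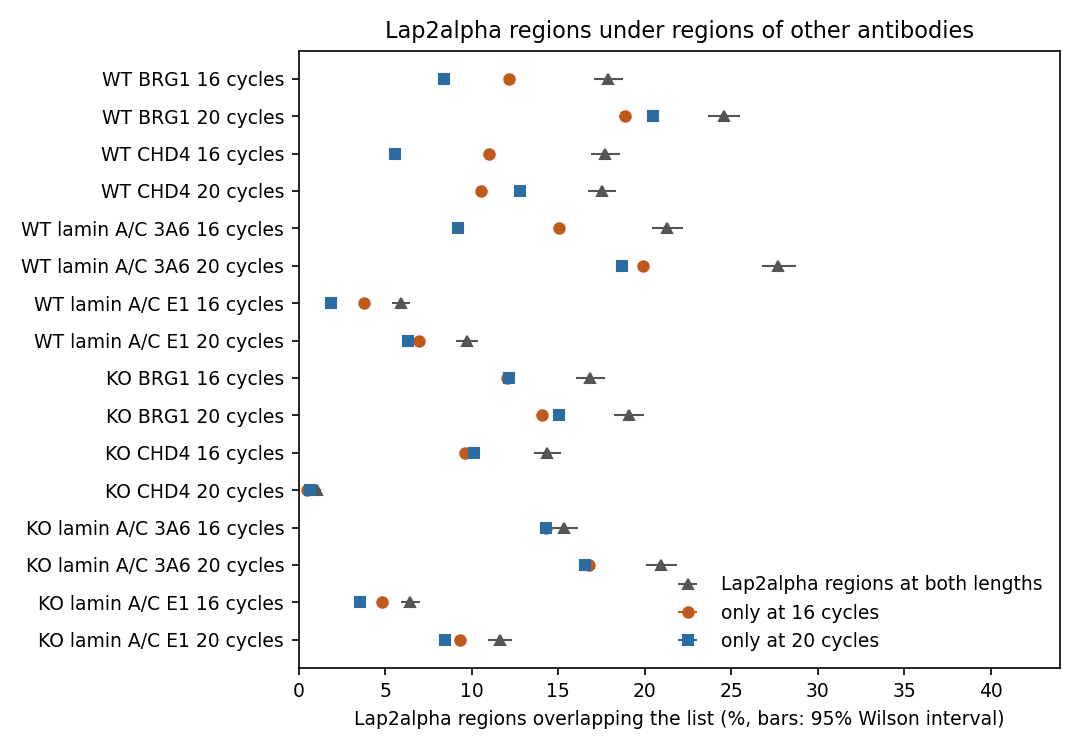
Percentage of Lap2alpha regions at both lengths (grey triangles, 16-cycle list), only at 16 cycles (orange circles) and only at 20 cycles (blue squares) that overlap each list of the other antibodies in wildtype (WT) and Lap2alpha KO cells; bars are 95% Wilson intervals and are smaller than most symbols. The regions at both lengths are to the right for every WT list, and the order of the other two changes between the 16- and 20-cycle lists of WT BRG1 and CHD4 over all chromosomes, but not for BRG1 on the autosomes alone (21.64% and 21.54% at 20 cycles).

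At gene ends the classes were set against BRG1 and CHD4 by gene, not by overlap of regions. A BRG1 or CHD4 region within 1 kb of either end counted, even at the other end from the Lap2alpha region. BRG1 regions of 16 cycles lay at an end of 69.9% of the 612 genes with Lap2alpha end regions at both lengths. The shares were 52.8% of the genes with 16 only and 47.1% of those with 20 only, beside 36.2% of all genes. The BRG1 list of 20 cycles had 82.2%, 65.9% and 79.0%, beside 63.1% of all. CHD4 regions of 16 cycles lay at 56.5%, 38.1% and 22.6%, beside 17.6% of all genes. The CHD4 list of 20 cycles had 77.3%, 56.4% and 72.3%, beside 54.7% of all.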

How the data were processed

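Groups were taken from the sample titles. Each of the 18 libraries used here has a deposited interval list, which gives positions in base pairs and no score. The submitters' processing notes name the build GRCm38 and the tools MACS2 2.1.4, HOMER 4.11.1, bedtools, deepTools and SAMtools without their roles. What threshold and control were used, and whether libraries were pooled, is not given in the sources used here.

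Intervals of width 0 (42 at 16 cycles, 73 at 20) and 1 mitochondrial interval at 16 cycles were left out. Overlapping intervals of a list would have been merged, but neither Lap2alpha list had any. Genes were the 21887 protein-coding genes of the RefSeq table for GRCm38, which gives no strand. Gene-end regions used both ends of these coordinates, and 3′ ends also the strand in the RefSeq promoter table for GRCm38.p6. Starts counted on their own were all starts in that promoter table. Chromosome spans come from the gene and region coordinates.

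Named genes were the 8 with the widest end region per class, for one-length classes with no region of the other length within 10 kb, the 8 gene bodies of at least 5 kb with the highest coverage at both lengths and the largest difference each way, Tmpo, Lmna, Smarca4 and Chd4, and up to 6 members of each of 24 gene lists. Olfactory, vomeronasal and predicted genes were not named. The gene lists, naming rule and classes were chosen with earlier results of these data known. Chromosomes X, 8, 3 and 19, the chromosome 11 stretch, the widest shared regions, the bins and list members beyond 6 were named after their values were seen.

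With 1 library per length no test was run. Shares have 95% Wilson intervals. Python 3.11.15, NumPy 2.4.6, pandas 2.3.3, SciPy 1.17.1 and Matplotlib 3.10.9 were used. On simulated intervals the scripts recovered 7 of 7 known quantities exactly.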

Additional observations from a re-analysis of the deposited data

How the results depend on the processing

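Of 73 values under alternative settings, 40 stayed within the counting interval or 1.5 times the count and 33 moved. With regions of at least 300 bp, 7.52% of the 16-cycle and 3.58% of the 20-cycle regions were shared, gene ends numbered 230 at both lengths, 371 only at 16 and 2022 only at 20, gene-rich shares were 31.3% (both) and 27.02% (only 20), and median widths 358 bp (only 16) and 372 bp (only 20). With equal numbers of the widest regions the shared proportions were 9.24% and 9.25% and the median width only at 20 was 310 bp. On autosomes only they were 10.99% and 7.16%, the gene-rich shares 24.1% (both), 19.7% (only 16) and 29.1% (only 20), and the median width only at 16 was 230 bp. Merging regions within 1 kb gave 12.01% shared at 16 cycles, 22.1% gene-rich for both, and medians of 236 and 272 bp. Requiring 50% of the shorter region gave 11.5% and 8.47%, and counting regions within 1 kb as shared gave 16.1% and 11.8%, with 28.0% gene-rich only at 20. Gene ends within 5 kb numbered 2721, 1761 and 7866 (both, only 16, only 20), and regions over the end itself 68, 199 and 645. The cause of these moves was not tested, beyond the window, width or overlap each setting changes. Bins of 500 kb, and intervals as listed, which are identical to the regions, moved none of the values they were run on.

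Leaving out a replicate was not possible with 1 library per length. No paired analysis was possible because each length is 1 library and its replicate number only names it. Depth is unknown, so regions absent from a list cannot be told apart from regions below its detection limit.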
